A study of Mus musculus with 42 samples.

Results

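The 9 genes described here encode the mouse 70 kDa heat shock proteins (HSP70) of the cytosol, ribosome and mitochondrion and their larger HSP110 relatives: Hspa1a, Hspa1b, Hspa2, Hspa4, Hspa4l, Hspa8, Hspa9, Hspa14 and Hsph1. They were chosen by name. In RNA-seq a member is the row that carries its symbol, and in 3′READS, which sequences the last bases of poly(A)+ transcripts, it is the sum of reads at polyadenylation sites (PASs) on its strand, inside its GENCODE span on mm9 or in up to 4000 nt downstream of it, stopping at the next gene. The members are 9 of 12347 genes listed by RNA-seq and 9 of 15393 genes with a PAS.

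The 42 libraries came from cultures of NIH3T3 mouse fibroblasts and of the C2C12 mouse muscle line, and the question was how mRNA levels and 3′ ends change in arsenic stress (AS) and in recovery (RC). AS was 250 µM sodium arsenite for 1 h, RC was a return to normal medium for 4, 8, 12 or 24 h afterwards, and non-treated (NT) cells stayed in normal medium. The labels give C57BL/6 as the strain of the NIH3T3 cells. NIH3T3 total RNA was sequenced by RNA-seq (NT at 0 h and 4 h, AS, and RC at 4 h, 1 library each) and by 3′READS (3 NT, 3 AS and 1 library for each RC time). After 1 h in 50 µM 4-thiouridine (4sU), RNA was separated into a 4sU-labelled fraction, enriched in new RNA, and a flow-through (Ft) fraction, enriched in older RNA. Each fraction had 1 library for NT at 0 h, AS, NT at 4 h and RC at 4 h. RNA bound to TIA1, an RNA-binding protein of stress granules, was precipitated from cytoplasm with an antibody, with 2 libraries each of TIA1-bound and input RNA in NT and in AS. C2C12 cells were proliferating myoblasts (MB) or differentiated myotubes (MT), with 2 total RNA libraries of each and 1 cytoplasmic library of each for NT at 0 h, AS, NT at 4 h and RC at 4 h. All of these are cell lines, so each group stands for 1 line in culture and not for tissue.

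HSP70 proteins hold unfolded stretches of other proteins and release them in cycles of ATP binding and hydrolysis, J-domain proteins deliver the clients, and HSP110 proteins and BAG proteins exchange the nucleotide so that the client is let go. In unstressed cells the constitutive HSP70 does most of this work, and after heat, heavy metals or arsenite heat shock factor 1 binds repeats of a short GAA unit in promoters and switches on the inducible members. The inducible genes Hspa1a and Hspa1b have no introns and lie side by side in the major histocompatibility region of chromosome 17.

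The 3′ ends that carry the 3′READS values are shown first, since they decide which members can be told apart. Each line gives 30 nt of the mm9 (NCBIM37) genome in the sense of the gene, ending at the PAS (for the Hsph1 proximal site 1 nt before it), with the canonical poly(A) signals AATAAA or ATTAAA in capitals. Where a gene has a proximal PAS (pPAS) and a distal PAS (dPAS), these are the 2 most abundant sites of its 3′UTR.
Hspa1a pPAS, chr17:35106701-35106730, minus strand: AATAAAtaagtatatatattcttcaattca
Hspa1a dPAS, chr17:35106304-35106333, minus strand: tttgaaAATAAActtcaaaatcacttgcca
Hspa1b dPAS, chr17:35093376-35093405, minus strand: ttaaatattcaaAATAAAaggttacaagta
Hspa2, chr12:77507896-77507925, plus strand: tttaaagtaaagctgaaattgatctcaaaa
Hspa4 pPAS, chr11:53075076-53075105, minus strand: cttgtttatATTAAAacagactattataaa
Hspa4 dPAS, chr11:53073316-53073345, minus strand: actAATAAAagaaacctgtcttaacttgaa
Hspa4l pPAS, chr3:40594330-40594359, plus strand: tgtgATTAAAttatagttcctgctgttaaa
Hspa4l dPAS, chr3:40599996-40600025, plus strand: AATAAAtacatattctacctgctacttgaa
Hspa8 site at the start of the last exon, chr9:40612986-40613015, plus strand: tttAATAAAtttgatttcttttttctcaga
Hsph1 pPAS, chr5:150419419-150419448, minus strand: AATAAAgtccaccctgtggtgtcatttcta
Hsph1 dPAS, chr5:150416865-150416894, minus strand: tgaccATTAAAgctactggggcaacctaaa
Within 45 nt upstream, AATAAA stood before 38.7% of the 47483 PASs in last exons or downstream of genes in the data, and AATAAA or ATTAAA before 53%. Of the sites printed, the Hspa2 site alone had neither. The 50 nt before each of these printed sites occur once in the genome, also with up to 3 mismatches, so 3′READS can separate Hspa1a from Hspa1b although their coding sequences are 99.48% identical. RNA-seq reads over those coding sequences cannot always be assigned to 1 of the 2 genes, and their RNA-seq values are therefore uncertain apart. How reads that fit both genes were counted is not stated, so a sum of the 2 values may hold some reads more than once.

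Hspa8, the constitutive HSP70, is poorly covered by 3′READS. Its annotated 3′ end lies at position 40613283 of chromosome 9, and the 50 nt before that end have 3 exact copies in the genome and 10 with up to 3 mismatches. Of its 6426 reads over 38 libraries, 3468 lay at the first base of the last exon and 38 at the site 2 nt past the annotated end. The 3′READS values of Hspa8 therefore count internal sites and not its usual 3′ end, and its level is taken from RNA-seq below.

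The promoters of 7 members were found in RefSeq (GRCm38.p6, 250 nt before to 50 nt after the start), and they differed in the repeats that heat shock factors bind. GAANNTTC or TTCNNGAA, repeats of 2 GAA units that read the same on both strands, occurred in 15.1% of 32851 promoters. The 3-unit repeat, which is GAANNTTC followed by NNGAA or the reverse complement of that run and so contains the shorter ones, occurred in 0.603%. Hsph1 had 3 of the 2-unit matches and 1 of the 3-unit match, Hspa1a and Hspa1b had 1 of the 2-unit match each in promoters that are 98.67% identical, and Hspa2, Hspa4, Hspa4l and Hspa14 had none. The matches are in capitals in the lines that follow, and a match is a run of letters and not evidence of binding.
Hsph1, 3-unit match, GRCm38.p6 chr5:149636279-149636308, minus strand: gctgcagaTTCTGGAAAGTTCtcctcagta
Hspa1a, 2-unit match, GRCm38.p6 chr17:34972239-34972268, minus strand: aactgctgGAAGATTCctggccccaaggcc
Hspa1b, 2-unit match, GRCm38.p6 chr17:34959321-34959350, minus strand: aactgctgGAAGATTCctggccccaaggcc

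Depth was 17137579 to 25194062 reads per RNA-seq library and 1048335 to 6974664 PAS reads per 3′READS library. All 6 fibroblast markers were listed in every NIH3T3 library, and 5 of them, all but Thy1, in every MB and MT library. All 6 myotube markers were listed in every MT library, with a summed level of 10300 to 21200 RPM (the reads-per-million scale) against 76.7 to 260.0 RPM in MB. In NIH3T3 cells these 6 summed to 70.5 to 178 RPM in RNA-seq and to 0 to 10.2 RPM in 3′READS. Myog, which marks muscle differentiation, was listed in no NIH3T3 and no MB library. Hspa1a was listed in 11 of the 38 3′READS libraries, Hspa8 in 34, and the other 7 members in all 38. A PAS with under 5 reads is not listed in a library's file, so an absent gene had few or no reads there.

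In RNA-seq of NIH3T3 cells, the inducible pair and Hsph1 were past 2-fold higher in AS, and most of the family stood higher 4 h into recovery. Together the 9 members took 0.611% and 0.645% of all reads in the NT libraries at 0 h and 4 h, 1.66% in AS and 11.4% at 4 h of recovery. These shares may hold some reads of the inducible pair more than once, since the counting of shared reads is not known. Each group had 1 library here, so a change was called past 2-fold after TMM scaling, and the 95% intervals given cover counting error only. By that rule 3 of 9 members were higher in AS (4.01% of 11303 genes compared) and 7 of 9 at RC 4 h (14.9% of 11119), and none was lower (1.83% and 16.3%). With the 2 NT libraries taken as 1 group edgeR could test these differences, with the spread of those 2 libraries standing in for that of AS and RC. It called 5 members higher in AS (3.17% of genes higher, 0.714% lower), which were the same 3 with Hspa8 (0.59 ± 0.11, adjusted p 0.00438) and Hspa4l (0.63 ± 0.17, adjusted p 0.0423), and in RC the same 7 as the 2-fold rule (24.7% higher, 24.6% lower).

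Hspa1a, the first of the inducible pair, had 66.1 RPM in NT at 0 h and 3162 RPM in AS, and 53.8 RPM in NT at 4 h and 26530 RPM in RC. Hspa1b had 84.6, 3862, 65.8 and 32040 RPM in the same order. Both treated libraries lay far above both NT libraries. Summed, the pair was higher by 5.59 on the log2 scale in AS (95% interval 5.54 to 5.64), a 48.1-fold difference, and by 9.67 at RC 4 h (9.61 to 9.73), an 815-fold difference. The 2 NT libraries differed by -0.33 in the sum (-0.41 to -0.25).

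Hsph1, the inducible HSP110 that recharges HSP70 with ATP, had 908 RPM in NT at 0 h, 3284 RPM in AS, 937 RPM in NT at 4 h and 39140 RPM in RC. It was 3.74-fold higher in AS (log2 1.90, interval 1.88 to 1.93) and 69.5-fold higher in RC (log2 6.12, 6.10 to 6.14), and its 2 NT libraries differed by 0.05 on the log2 scale. Hspa4l, a second HSP110 gene, had 29.2, 47.8, 34.5 and 192 RPM in NT at 0 h, AS, NT at 4 h and RC. Its log2 ratio was 0.76 in AS, short of 2-fold, and 3.21 in RC (3.08 to 3.33). Hspa4, the constitutive HSP110, moved least of the 3, with log2 ratios of 0.14 in AS and 1.24 in RC.

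Hspa8 had 2161 RPM in NT at 0 h, 3323 RPM in AS, 2395 RPM in NT at 4 h and 10730 RPM in RC, with log2 ratios of 0.67 (0.65 to 0.68) and 2.90 (2.88 to 2.91). Hspa9, the mitochondrial HSP70, stood at 1726, 1745, 1694 and 3835 RPM and had log2 ratios of 0.06 and 1.91. Both constitutive genes were thus past 2-fold in recovery and short of it in AS. Hspa2, best known from male germ cells, and Hspa14, which works at the ribosome, had log2 ratios between 0.01 and 0.13 in the 2 comparisons.

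The direction of Hspa2 and Hspa14 in recovery rests on the scaling. With library totals in place of TMM the median of all genes moved from -0.06 to -0.80 at RC 4 h, Hspa2 from 0.01 to -0.73 and Hspa14 from 0.01 to -0.72, while Hspa4 fell short of 2-fold at 0.51. Relative to the median gene, neither scaling put Hspa2 or Hspa14 past 2-fold. In bulk RNA, fewer cells with a transcript and less of it per cell cannot be told apart.

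**Figure D1:**
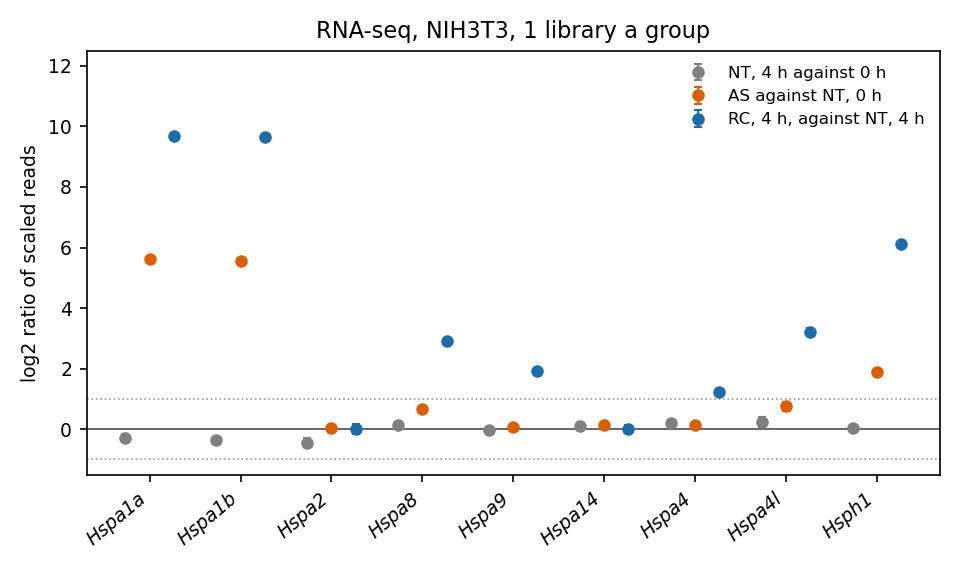
RNA-seq of NIH3T3 total RNA, log2 ratio of TMM-scaled reads (vertical axis) for each of the 9 members (horizontal axis), with 1 library a group. Points are NT at 4 h against NT at 0 h (grey), AS against NT at 0 h (orange) and RC at 4 h against NT at 4 h (blue), bars are 95% counting intervals, which are mostly smaller than the points, and dotted lines mark 2-fold. Hspa1a and Hspa1b stand near 5.6 in AS and 9.7 in RC, and Hsph1 at 1.90 and 6.12.

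Per kilobase of coding sequence, which allows genes to be compared, the order of the members changed. In NT at 0 h, RNA-seq gave 1120 RPM per kilobase for Hspa8, 847 for Hspa9, 407 for Hspa4 and 353 for Hsph1, and the other 5 members lay between 11.6 (Hspa4l) and 43.9 (Hspa1b). At RC 4 h Hsph1 was at 15200, Hspa8 at 5540, Hspa9 at 1880, Hspa4 at 662, Hspa4l at 76.2, Hspa14 at 25.4 and Hspa2 at 10.7. The inducible pair had 34.4 (Hspa1a) and 43.9 (Hspa1b) in NT at 0 h and 13800 and 16600 at RC 4 h. As a sum, if no read was counted for both genes, it went in RNA-seq from below Hspa8, Hspa9, Hspa4 and Hsph1 to above all 4. The split within the pair is uncertain: in 3′READS, where the 2 genes have separate 3′ ends, Hspa1a had 24.9 RPM and Hspa1b 2430 RPM in total RNA at RC 4 h, 33.4 and 6255 RPM in 4sU-labelled and 83.6 and 7606 RPM in flow-through RNA. In each of these 3′READS libraries the summed pair stood below Hsph1, so its order against Hsph1 differed from that in RNA-seq. In total RNA at RC 4 h Hsph1 had 5356 reads at its pPAS, and Hspa1b had 4496 at its dPAS. With 1 library a group the spread between samples behind these orders is unknown.

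Markers of other cells were low in these libraries. Ptprc was at 0 in all 4, the 5 markers summed to between 5.95 and 27.9 RPM, and the highest sum was in RC, where Cd68 had 24.6 RPM against 5.95 RPM in NT at 4 h and Krt8 had 65 reads against none listed. Their part in the changes of the members was not tested.

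Some partners of HSP70 were past 2-fold higher in these libraries too. Of 16 J-domain, BAG and other co-chaperone genes, 4 were past 2-fold higher in AS and 9 in RC, none was lower, and their median log2 ratio was 0.07 in AS and 1.56 in RC, beside -0.06 over all genes in RC. Dnajb1, a J-domain protein, led in both, with 4.94 in AS and 6.84 in RC. Dnaja4 had 2.89 and 6.77, and Dnajb4, with 1.59 in AS, and Bag3, with 4.49 in RC, came next. Of 4 heat shock factor genes none was past 2-fold in AS, and Hsf2 alone was higher in RC (1.48).

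Other genes of the HSP70 superfamily behaved unevenly. Hspa1l, a germ-cell HSP70 whose gene lies next to Hspa1a on the opposite strand, had log2 ratios of 5.68 in AS and 9.35 in RC, Hyou1, a chaperone of the endoplasmic reticulum, had -0.50 and -2.20, and Hspa12b had 0.06 and -3.09. Whether RNA-seq reads of Hspa1a and Hspa1b were counted for Hspa1l was not tested, and in 3′READS of the 4sU and Ft fractions Hspa1l had at most 14 reads, while in C2C12 cytoplasm at RC 4 h it had 67 reads in MB and 316 in MT.

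In 3′READS of NIH3T3 total RNA, the comparison of 3 AS with 3 NT libraries called no member in either the unblocked or the blocked fit. Hspa1b had 157, 4.3 and 47.5 RPM in NT replicates 1, 2 and 4 and 654, 574 and 249 RPM in AS replicates 1, 2 and 4. Every AS library was above every NT library, and the ranges did not overlap. The log2 fold change was 2.91 ± 1.13 (SE), with an adjusted p of 1 in edgeR's quasi-likelihood test, in which 0% of 10491 genes were called higher or lower. Libraries with the same replicate number deviated together, and with the replicate number as a block the fold change was 3.49 ± 0.81 with an edgeR adjusted p of 0.335, beside 0.0858% of genes called higher.

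Hspa1a was listed in no NT library and in AS replicates 1 and 2 at 4.79 and 5.16 RPM, and in AS replicate 4 it was not listed. Hspa8, counted at its internal sites, had 26.2, 12.1 and 6.70 RPM in NT and 60.4, 161 and 35.6 RPM in AS replicates 1, 2 and 4, with a log2 fold change of 2.55 ± 0.79 and an edgeR adjusted p of 1 (0.174 with the block). Without the block these 3 genes were the members with an unadjusted p under 0.05 in edgeR, with the block Hsph1 was the other one, and DESeq2 had 2 such members and called none. Hsph1 had 346, 511 and 451 RPM in NT and 456, 1048 and 418 RPM in AS, so it was higher in 2 of 3 pairs and the groups overlapped (0.58 ± 0.53, and with the block 0.46 ± 0.20, edgeR adjusted p 0.832). The other 5 members had log2 fold changes between -0.35 (Hspa14) and 0.43 (Hspa2) without the block, less than their SE.

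The levels of several members differed between the replicate sets more than between treatments. Hspa4l had 77.2 and 49.2 RPM in NT replicates 1 and 2 and 435 RPM in NT replicate 4, and Hspa14 had 21.2, 17.2 and 68.3 RPM. Hspa9 went the other way, with 770, 417 and 202 RPM.

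Recovery was followed in replicate set 4 only. Hspa1b went from 47.5 RPM in NT and 249 RPM in AS to 2430 RPM at RC 4 h, and then to 100 RPM at 8 h, 26.6 RPM at 12 h and 24.8 RPM at 24 h. Hsph1 had 451, 418, 3282, 566, 229 and 255 RPM at the same points, and Hspa9 had 202, 200.3, 361, 243, 205 and 202 RPM. The 3 genes thus peaked in the library at 4 h, and from 12 h on Hspa1b and Hsph1 lay below their NT library.

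Against the 3 NT libraries without the block, edgeR called no member in recovery, with 3 members at an unadjusted p under 0.05 at 4 h and 0, 0 and 1 at 8, 12 and 24 h, while DESeq2 called Hspa1b and Hsph1 at 4 h (0.192% of all genes higher, 0.113% lower) and none later (0.0286% of genes higher and 0.0667% lower at 8 h, 0.0113% lower at 12 h and 0.0191% at 24 h). With the replicate block 5 members were higher at 4 h, where 3.72% of all genes were higher and 2.14% lower. Each RC time is 1 library, so the spread in these tests comes from the NT and AS libraries and the RC library is assumed to vary like them. Hsph1 had a log2 fold change of 3.33 ± 0.30 (adjusted p 0.00335), Hspa1b 6.49 ± 1.13 (0.0197), Hspa9 0.99 ± 0.23 (0.0481) and Hspa4 0.89 ± 0.21 (0.0472) in edgeR. Hspa1a was called too (edgeR adjusted p 0.029), but it was listed in no NT library and in RC with 47 reads, so no fold is given. Without the block Hspa9 had -0.25 ± 0.92, with more Hspa9 in NT replicates 1 and 2 than in replicate 4, and the median gene stood at -0.21 rather than -0.01. At 8, 12 and 24 h the block called no member (0.0667% of genes higher and as many lower at 8 h, none later, while Hspa4l had an unadjusted p under 0.05 at all 3 times and Hsph1 at 12 h).

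Set against the NT library of the same set, a ratio added after the data were seen, Hspa1b was 5.28-fold higher in AS, 59.1-fold at 4 h and 0.497 times NT at 24 h. Hsph1 was 8.41-fold higher at 4 h, Hspa9 2.07-fold, and Hspa8, counted at its internal sites and on few reads in NT, 6.60-fold. Hspa4l, in contrast, was never past 2-fold higher in this set and stood at 0.415, 0.299 and 0.483 times NT at 8, 12 and 24 h. These Hspa4l ratios rest on an NT library that stood far above the other NT libraries in this gene, as given above. RNA-seq above and the 4sU and Ft fractions below put Hspa4l past 2-fold higher at RC 4 h. In these ratios 2 members were past 2-fold higher in AS (3.16% of all genes), 4 at 4 h (10.4%), 1 at 8 h (5.41%), and lower were 1 at 8 h (5.49%), 2 at 12 h (3.72%) and 2 at 24 h (2.67%).

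**Figure D2:**
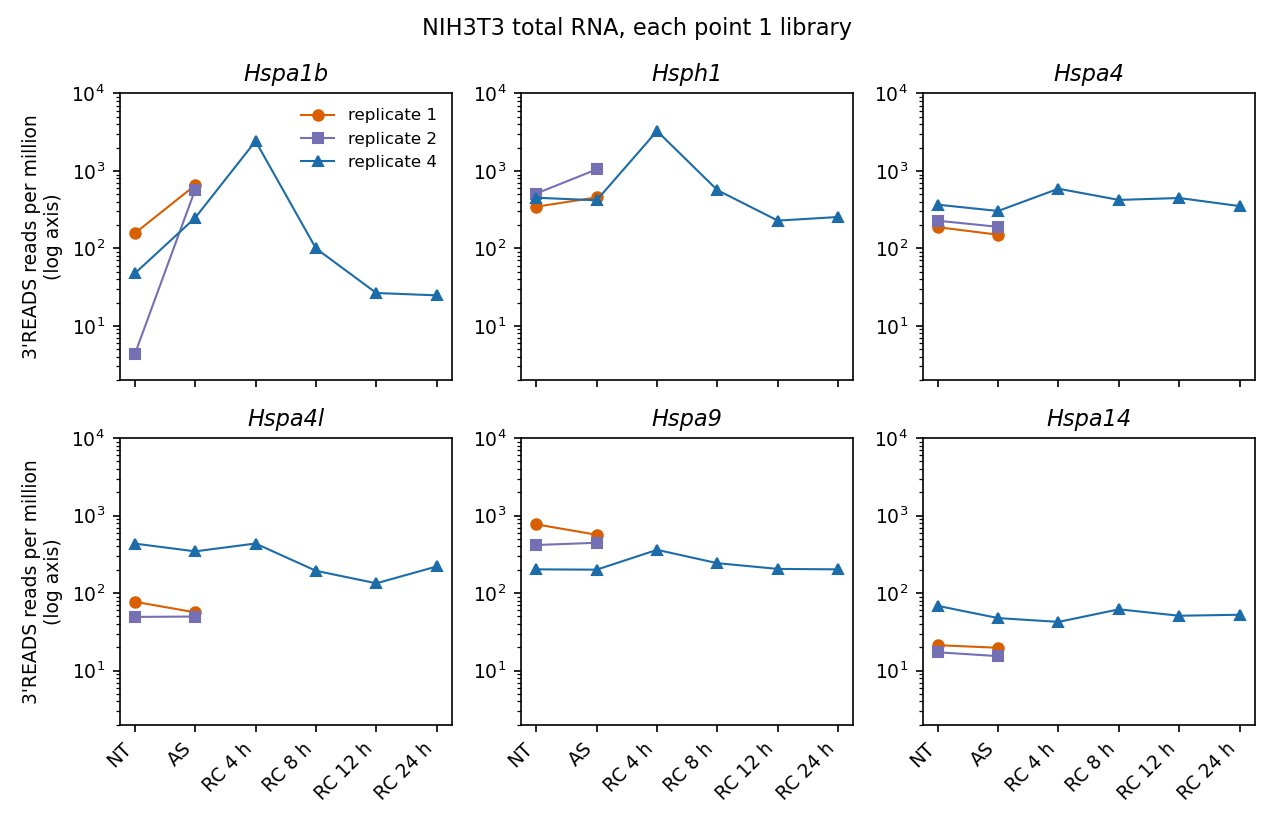
3′READS of NIH3T3 total RNA, RPM on a log axis for 6 members (panels) by condition, each point 1 library, with colours and symbols for replicates 1, 2 and 4 and lines joining libraries of the same number. Hspa1b and Hsph1 peak at 2430 and 3282 RPM at 4 h of recovery, and replicate 4 stands apart from replicates 1 and 2 for Hspa4l and Hspa14.

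The co-chaperone list followed the same course in the blocked fit. Of 15 genes tested, 6 were higher at RC 4 h and none in AS or at the later times, and the median at 4 h was 0.85 on the log2 scale beside -0.01 for all genes. Dnajb1 led with 4.14 ± 0.63 (edgeR adjusted p 0.0132), followed by Dnajb4 with 3.34 ± 0.44 and Dnaja1 with 2.71 ± 0.41. None of the 3 heat shock factor genes tested was called.

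In the 4sU-labelled fraction, enriched in RNA made in the hour before harvest, the inducible genes stood higher already in AS. Hspa1b had 48.1 RPM in NT at 0 h and 3257 RPM in AS, and 53.8 RPM in NT at 4 h and 6255 RPM in RC. In Ft, enriched in older RNA, it had 27.2 and 827 RPM, and 36.8 and 7606 RPM. In AS the labelling hour was the arsenite hour itself, and how much unlabelled new RNA the Ft fraction held was not tested. The AS ratio was 73.9-fold in 4sU (log2 6.21, 95% counting interval 5.95 to 6.48) and 29.9-fold in Ft (4.90, 4.58 to 5.24), and the RC ratio was 143-fold (7.16, 6.96 to 7.36) and 279.8-fold (8.13, 7.87 to 8.4). The 4sU ratio was thus the larger in AS and the Ft ratio the larger in RC, with intervals that did not overlap, in 1 library each.

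Hsph1 showed the same order. It had 1092 RPM in NT and 3187 RPM in AS in 4sU against 740 and 1098 RPM in Ft, with log2 ratios of 1.67 (1.61 to 1.74) and 0.55 (0.47 to 0.63). At RC 4 h the log2 ratios were 3.89 (3.84 to 3.95) in 4sU and 4.83 (4.77 to 4.89) in Ft, where it reached 13890 RPM. Hspa4l had 0.35 in 4sU and -0.52 in Ft in AS, and 2.58 and 3.40 in RC.

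Hspa1a was listed in no NT library of either fraction. It had 24 reads in 4sU in AS and none listed in Ft, and 148 and 257 reads in RC, the last being 83.6 RPM. Hspa8 at its internal sites had log2 ratios of 4.71 and 4.61 in AS in 4sU and Ft and of 3.87 and 4.64 in RC, from NT libraries with 17 to 26 reads. Of the constitutive members, Hspa4 had 0.49 and -0.0025 in AS in 4sU and Ft and 0.81 and 1.38 in RC, and Hspa9 had 0.36 and -0.14 in AS and 0.97 and 0.93 in RC.

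Of the 8 members with a ratio, 3 were past 2-fold higher in 4sU in AS (6.59% of all genes) and 2 in Ft (5.4%), and 4 in 4sU (13%) and 5 in Ft (15.2%) at RC 4 h. One member was lower, Hspa2 in Ft at RC 4 h (log2 -1.35, -1.88 to -0.85, beside 12.6% of all genes lower), from 156 to 42 reads. Between the NT libraries at 0 h and 4 h no member differed by 2-fold in either fraction, and the widest difference was that of Hsph1 in 4sU, at -0.63.

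The ratio of Ft to 4sU within a condition puts the fractions side by side. Unlike in the study, it was not adjusted for the number of uridines in a transcript, which affects labelling and capture. In NT no member was past 2-fold at 0 h or 4 h (14.7% and 15.5% of all genes higher in Ft, 20.3% and 20.9% lower). In AS 3 members were lower in Ft, Hspa1b at -1.99 (-2.06 to -1.92), Hspa4l at -1.76 and Hsph1 at -1.55, beside 18.5% of all genes, and none was higher (12.7%). At RC 4 h these 3 stood at 0.58, 0.09 and 0.95, and Hspa1a at 1.62 and Hspa8 at 1.06 were past 2-fold higher (18.1%), with none lower (19.8%). The 3 genes thus had the higher scaled level in labelled RNA in AS and not at RC 4 h. With library totals the median gene moved by up to -0.36 in these ratios, and Hspa8 at RC 4 h then fell short of 2-fold.

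**Figure D3:**
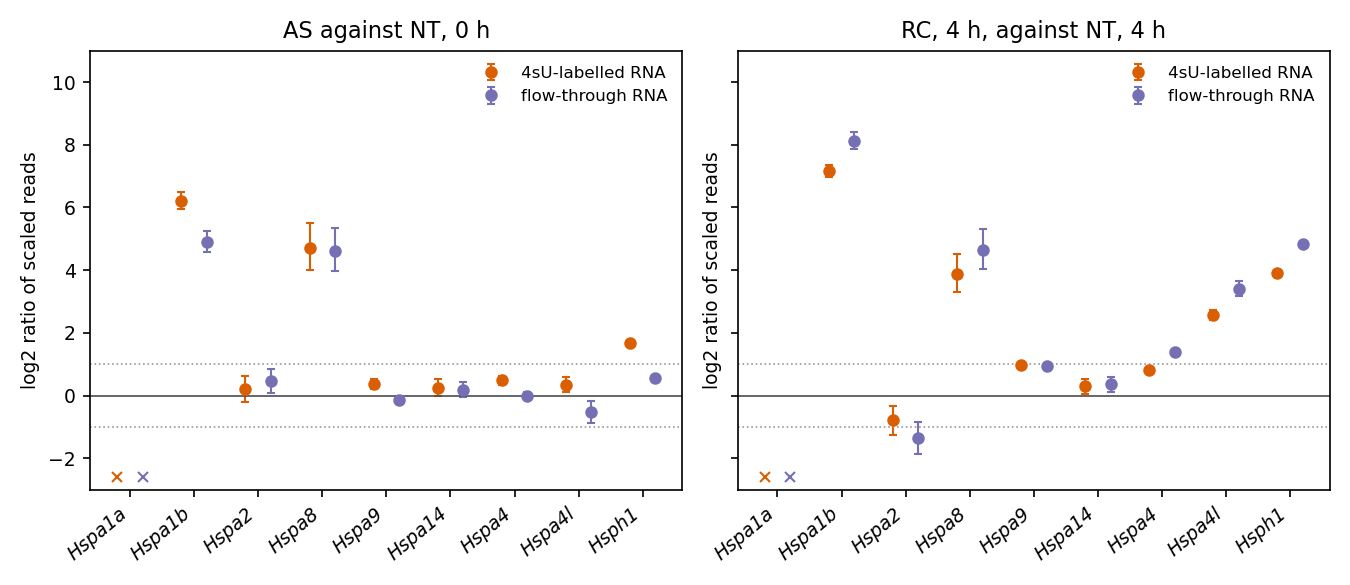
3′READS of NIH3T3 RNA fractions, log2 ratio of TMM-scaled reads (vertical axis) for each member (horizontal axis) in AS (left) and at RC 4 h (right), in 4sU-labelled RNA (orange) and flow-through RNA (purple), 1 library a group. Bars are 95% counting intervals, dotted lines mark 2-fold, and crosses mark a member with no listed reads in a control library. For Hspa1b, Hsph1 and Hspa4l the labelled fraction has the higher ratio in AS and the flow-through fraction in RC.

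In the cytoplasm of NIH3T3 cells, Hspa1b was the member, and the gene of all 10173 tested, that edgeR called higher in AS (0.00983% of genes). It had 6.86 and 8.71 RPM in NT input replicates 1 and 2 and 306 and 674 RPM in AS input. The groups did not overlap, and the log2 fold change was 5.83 ± 0.53 (edgeR adjusted p 0.0144). The call rests on both NT libraries: without NT input replicate 1 the edgeR adjusted p was 0.282 and without replicate 2 it was 0.181, with fold changes of 5.67 and 5.99. Hspa8 at its internal sites had 4.67 and 1.98 RPM in NT and 148 and 50.6 RPM in AS, a log2 fold change of 4.77 ± 1.13 with an edgeR adjusted p of 1, while DESeq2 called it (adjusted p 0.00421) together with Hspa1b (0.202% of genes higher, 0.0238% lower).

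Hsph1 had 339.9 and 373 RPM in NT input and 684 and 620 RPM in AS input, again without overlap, and its log2 fold change of 0.75 ± 0.46 was not called (edgeR adjusted p 1). Hspa2 had 6 reads in each NT library and 26 and 25 in AS (2.20 ± 1.06, not called). Hspa4, Hspa4l, Hspa9 and Hspa14 had log2 fold changes between -0.13 and 0.35. Hspa1a was listed in 1 AS input library with 13 reads and was not tested.

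Without a block no member was called between TIA1-bound and input RNA, in NT or in AS, where edgeR called 1.66% and 0.324% of genes enriched and 1.38% and 0.59% depleted. No member had an unadjusted p under 0.05 in either in that fit, and DESeq2 called none and had 1 such member in each (7.01% and 5.56% of genes enriched, 7.25% and 6.42% depleted). Input and TIA1-bound RNA of a replicate came from the same lysate within NT or AS. The replicate block gave NT and AS libraries of the same number 1 shared effect, so it did not model each lysate by itself. With the replicate number as a block edgeR called Hspa8 depleted in AS (-1.90 ± 0.55, adjusted p 0.0373) and no other member, with 3 members at an unadjusted p under 0.05 in NT and 2 in AS (8.99% and 9.66% of genes enriched, 9.18% and 7.41% depleted). Hspa4l was the member with the highest ratio. It had 157 and 139 RPM in TIA1-bound RNA against 97.2 and 42.4 RPM in input in NT, and 158 and 115 RPM against 68.4 and 71.0 RPM in AS, so it was higher in all 4 pairs. Its log2 ratios were 0.95 ± 0.46 and 0.88 ± 0.46 (edgeR adjusted p 0.268 and 0.331, and 0.0633 and 0.125 with the block).

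Hspa1b, in spite of its rise in input, had a log2 ratio of TIA1-bound to input RNA of -0.08 ± 0.47 in NT and -0.06 ± 0.42 in AS. It had 423 and 564 RPM in TIA1-bound RNA in AS beside the 306 and 674 RPM in input, so its reads in the 2 kinds of library overlapped. Hsph1 had -0.53 ± 0.46 in NT and -0.15 ± 0.46 in AS, Hspa4 -0.96 ± 0.49 and -0.24 ± 0.48, and Hspa9 -0.38 ± 0.35 and 0.18 ± 0.35. Hspa14 had -0.88 ± 0.53 and 0.15 ± 0.52, and Hspa2 0.10 ± 1.03 and 0.33 ± 0.98. Hspa8 was lowest, at -2.02 ± 1.23 and -2.09 ± 0.98, with 32.8 and 18.2 RPM in TIA1-bound RNA in AS against 148 and 50.6 RPM in input. For the change of this ratio from NT to AS, edgeR called no gene and had no member at an unadjusted p under 0.05, with estimates between -0.07 (Hspa4l) and 1.02 (Hspa14), and DESeq2 called no member (0.0491% of genes lower).

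Differentiation of C2C12 cells was the comparison in which edgeR called every tested member, and DESeq2 all of them but Hspa8. Of 8 members tested, 6 were lower in MT than in MB and 2 were higher, in data where edgeR called 29.2% of 10658 genes lower and 31.9% higher. Hspa1b had 37.0 and 55.0 RPM in MB replicates 2 and 3 and 7.0 and 11.5 RPM in MT, a log2 fold change of -2.15 ± 0.25 (edgeR adjusted p 3.92e-06). Hsph1 had 505 and 544 RPM in MB and 233 and 225 RPM in MT (-1.04 ± 0.09). In both genes the 2 groups did not overlap.

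The HSP110 genes fell together. Besides Hsph1, Hspa4 had 560 and 506 RPM in MB and 358 and 296 RPM in MT (-0.55 ± 0.11), and Hspa4l 269.8 and 308 RPM in MB and 156 and 135 RPM in MT (-0.84 ± 0.11). Hspa14 had 109 and 102 RPM in MB and 41.8 and 37.9 RPM in MT (-1.25 ± 0.13). Hspa9 rose from 358 and 386 RPM in MB to 651 and 712 RPM in MT (1.03 ± 0.09), and Hspa2 from 19.4 and 25.9 RPM to 46.9 and 34.5 RPM (0.98 ± 0.20). The edgeR adjusted p of these genes lay between 2.61e-07 (Hsph1) and 0.00064 (Hspa2), and each had all MT libraries on 1 side of all MB libraries.

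Hspa8 at its internal sites had 23.1 and 13.6 RPM in MB, 2.85 RPM in MT replicate 2 and no listed reads in MT replicate 3. The edgeR test called it lower (adjusted p 0.000121) and DESeq2 did not (0.193), where DESeq2 called 24% of genes higher and 20.9% lower. Hspa1a was listed in none of these 4 libraries. In the co-chaperone list 4 of 16 genes were higher and 5 lower, led by Dnajb5 (19 and 35 reads in MT, not listed in MB), Dnajb2 (0.84 ± 0.16) and Bag1 (0.81 ± 0.10) upward and by Dnajb1 (-1.42 ± 0.13), Hspbp1 (-0.93 ± 0.13) and Stub1 (-0.81 ± 0.13) downward, and the median was 0.03, as for all genes.

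In C2C12 cytoplasm, AS and RC gave the inducible genes the same direction as in NIH3T3 cells in both states. Hspa1b had 28.5 RPM in NT at 0 h, 1178 RPM in AS, 15.6 RPM in NT at 4 h and 3654 RPM in RC in MB. In MT it had 29.2, 697, 61.8 and 10980 RPM. The log2 ratios were 5.35 (4.93 to 5.80) and 4.57 (4.22 to 4.94) in AS, and 8.20 (7.66 to 8.80) and 7.59 (7.37 to 7.81) in RC, for MB and MT. The 2 NT libraries of MT differed by 2.18-fold in this gene, the only member with such a difference (2.57% of all genes), so the RC ratio of MT depends on its control.

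Hspa1a was listed in no NT library of C2C12 cytoplasm and in all 4 AS and RC libraries. It had 214 reads (83.6 RPM) in AS and 697 reads (321 RPM) in RC in MB, and 147 reads (50.3 RPM) and 5245 reads (1866 RPM) in MT. Hsph1 had 216, 571, 151 and 4395 RPM in MB and 148, 463, 151 and 7775 RPM in MT at NT 0 h, AS, NT 4 h and RC. Its log2 ratios were 1.38 (1.21 to 1.55) and 1.63 (1.46 to 1.80) in AS and 5.20 (5.02 to 5.38) and 5.80 (5.66 to 5.95) in RC.

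Among the constitutive and less inducible members, some ratios were alike in the 2 states and others were not. Hspa9 had log2 ratios of 0.10 and 0.20 in AS and 1.26 and 1.38 in RC in MB and MT. Hspa4 had 0.61 in MB and 1.31 in MT in RC, and Hspa4l 1.29 and 0.30. The MB value of Hspa4l depends on its control: its pPAS and dPAS had 142 and 73 reads in NT at 0 h and 72 and 48 at 4 h. With both NT libraries as 1 group its edgeR estimates in RC were 0.80 in MB and 0.56 in MT, short of 2-fold. Hspa14 stood at -1.07 (-1.37 to -0.79) in RC in MB and at 0.16 in MT, and against the NT library at 0 h it was short of 2-fold in MB. Hspa2 had 1.35 (0.48 to 2.31) in AS in MB, from 14 to 56 reads. Whether MB and MT differ in these ratios was not tested, with 1 library each. Between the cytoplasmic NT libraries at 0 h, Hspa2 was higher in MT (log2 1.99, 1.16 to 2.93, 14.4% of all genes) and no member was lower (11.5%), and Hspa1b stood at 0.06 (-0.49 to 0.63) there beside -2.15 in total RNA.

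Past 2-fold higher were 4 of 8 members in MB in AS (5.15% of all genes) and 2 of 7 in MT (5.49%), and 5 of 8 in each in RC (12.1% and 7.76%). One was lower, Hspa14 in MB in RC (12.6%). With the 2 NT libraries of each state taken as 1 group, edgeR called Hspa1b in AS in MB (0.0853% of genes) and none in MT (0.0474%), and in RC Hspa1a, Hspa1b and Hsph1 in both states with Hspa9 added in MT (0.739% and 1.14%).

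**Figure D4:**
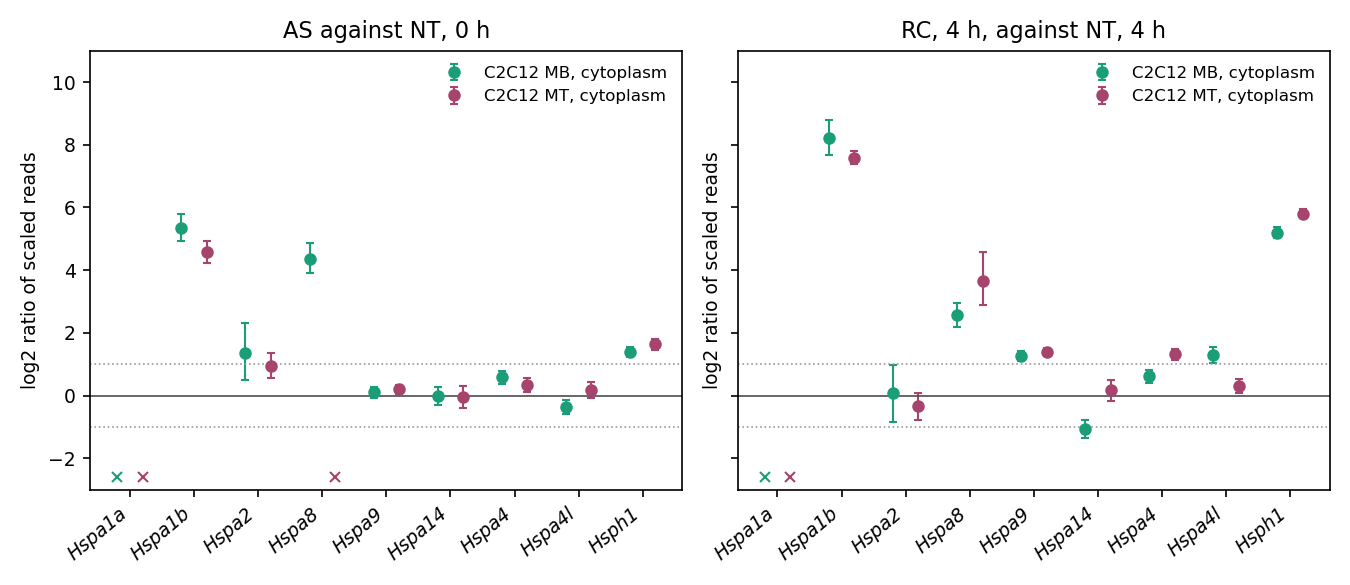
3′READS of C2C12 cytoplasmic RNA, log2 ratio of TMM-scaled reads (vertical axis) for each member (horizontal axis) in AS (left) and at RC 4 h (right), in MB (green) and MT (red), 1 library a group. Bars are 95% counting intervals, dotted lines mark 2-fold, and crosses mark a member with no listed reads in a control library. Hspa1b stands at 5.35 and 4.57 in AS and at 8.20 and 7.59 in RC, and Hsph1 at 5.20 and 5.80 in RC.

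The last exons of the members and the stretches downstream offered 8 genes with 2 PASs, at distances from 41 nt in Hspa14 to 5666 nt in Hspa4l, and Hspa2 had 1 site. In Hspa8 the first site, at position 40613015, lies before the coding end at 40613200 and so not in the 3′UTR. No Hspa8 comparison had enough reads at both sites for the test below. A shift was called where Fisher's exact test on the reads of both sites gave P under 0.05 and the dPAS share changed by over 5 percentage points. That test compares the reads of 2 libraries and not the conditions. Over 15 AS and RC comparisons, 63 member comparisons had over 5 reads at both sites in both libraries, and 26 of them were called toward the pPAS and 3 toward the dPAS. Of all genes, 2.77% to 28.2% were called toward the pPAS and 1.33% to 6.19% toward the dPAS in these comparisons, so the direction of the members was also the more frequent one among all genes in all of them but RC 24 h.

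Hsph1 was the member whose dPAS share went up. Its pPAS lies in the last exon of most annotated transcripts, and its dPAS lies 2553 nt downstream on the genome, in a last exon that 1 annotated transcript reaches by splicing within the 3′UTR. In total RNA replicate 2 the dPAS had 0.313% of the reads of both sites in NT (10 reads, with 3182 at the pPAS) and 7.21% in AS (95% Wilson interval 6.64 to 7.84, Fisher's exact P 5.13e-70), beside 5.3% of all genes called toward the dPAS and 9.61% toward the pPAS. In 4sU-labelled RNA it had 0.417% in NT and 11.2% in AS (10.5 to 12.0, exact P 4.58e-95), beside 3.86% of all genes toward the dPAS and 20.7% toward the pPAS. Intervals cover counting error only, since amplified reads are not independent molecules.

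The share in AS varied between sets. It was 1.03% in AS in total RNA replicate 1, and in replicate 4 the dPAS was not listed in NT or AS. In Ft it was 4.31% in AS, short of the 5 points needed, and at RC 4 h it was 2.16% in 4sU and 2.28% in Ft. In total RNA replicate 4 it was 2.65%, 3.21% and 4.27% at RC 4, 8 and 12 h, and at 24 h the dPAS was again not listed. In C2C12 cytoplasm the dPAS was listed in none of the 4 NT libraries, and it had 5.80% and 4.08% in AS and 4.76% and 6.90% in RC in MB and MT. A dPAS not listed had under 5 reads, so shares in shallow NT libraries are bounded only loosely: with 261 pPAS reads in MB at NT 4 h, 4 unlisted reads would still be possible.

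**Figure D5:**
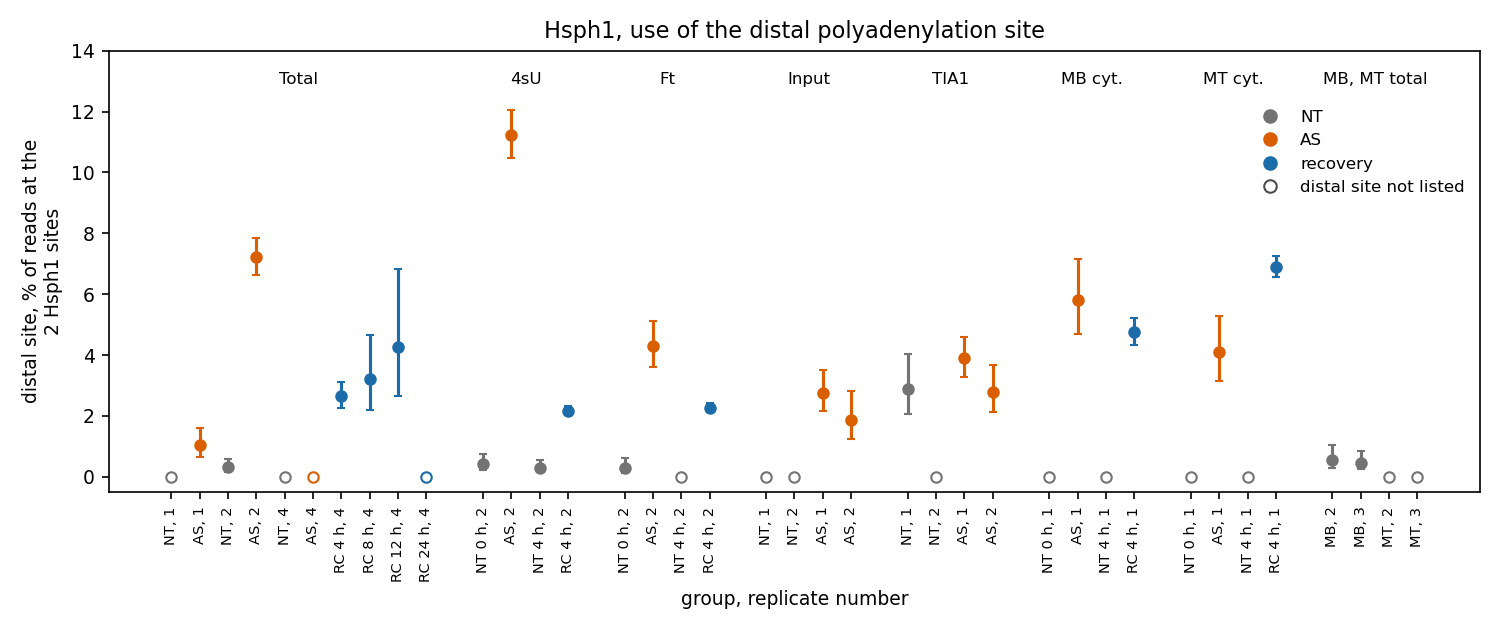
Share of the distal PAS in the reads of both Hsph1 sites, in percent (vertical axis), in each of the 38 3′READS libraries (horizontal axis, group and replicate number), for NT (grey), AS (orange) and RC (blue). Bars are 95% Wilson intervals and open circles mark libraries in which the dPAS is not listed. AS and RC libraries lie between 1.03% and 11.2% where the site is listed, and the one NT library above 1% is TIA1-bound replicate 1 at 2.89%.

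The other members with 2 sites moved toward the pPAS where they were called, with 1 exception. Hspa9 was called toward the pPAS in 10 of 15 comparisons, as in MT at RC 4 h, where its dPAS share went from 23.4% to 10.3% (exact P 7.45e-17, 18.7% of all genes). In total RNA in AS it was called in replicate 2 alone, from 51.6% to 34.8%, beside 8.31% to 9.66% in replicate 1 and 11% to 8.54% in replicate 4. The share in NT thus ranged widely between sets before any treatment, and the 2 NT libraries of Ft were themselves called apart, at 45% and 36.1% (6.21% of all genes).

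Hspa4, whose sites lie 1760 nt apart, had a dPAS share of 52.7% in NT and 38.4% in AS in replicate 1 (exact P 1.87e-06, 8.98% of all genes toward the pPAS), 1.21% and 1.26% in replicate 2, and 21.2% and 14.9% in replicate 4 (exact P 0.0206, 5.39%). In replicate 4 it then stood at 7.95%, 9.85%, 10.0% and 23% at RC 4, 8, 12 and 24 h, below NT until the last time. An edgeR test of isoform by treatment over the 3 pairs, with the replicate number as a block, gave a change in log2 dPAS to pPAS ratio of -0.59 ± 0.24 (adjusted p 0.438) and called 0 of 1702 genes, with 158 at an unadjusted p under 0.05. No member was called in the same direction in all 3 pairs.

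Hspa4l has the widest spacing of the family. Its dPAS share went from 38% to 17.8% in AS and from 40.8% to 22.2% in RC in MT (exact P 1.16e-05 and 1.89e-06), and from 40% to 13.8% in RC in MB (1.52e-08). Of all genes, 11.7%, 18.7% and 27.0% were called toward the pPAS in these comparisons. In total RNA in AS the replicates differed in direction, from 56.5% to 58.7% in replicate 1 and 55.9% to 59.4% in replicate 2 (neither called) and from 53.9% to 45.7% in replicate 4 (called), and the edgeR isoform test over the 3 pairs with the block gave -0.08 ± 0.24 (adjusted p 0.955). At RC 4 h replicate 4 had 39.0%. In 4sU in AS it moved the other way, from 46.0% to 71.2% (exact P 2.25e-07), but the NT library of 4sU at 4 h had 66.9%, so that the 2 NT libraries were themselves called apart (9.63% of all genes). Between MT and MB total RNA it was called toward the pPAS in replicate 3, at 30.4% against 39.6% (6.58% of all genes), and not in replicate 2, at 26.7% against 31.7% (7.3%).

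In TIA1-bound RNA the long form of Hspa4l had the larger share. It had 66.6% in TIA1-bound RNA and 62.6% in input in NT replicate 1 (not called), 68.9% and 37.9% in NT replicate 2, 58.2% and 38.2% in AS replicate 1, and 57.0% and 42.1% in AS replicate 2. It was higher in all 4 pairs and called in 3, in data where 32.8% to 37.6% of all genes were called toward the dPAS. Hspa9 was called toward the pPAS in 3 of the 4 pairs, where 7.92% to 11.4% of all genes were, and toward the dPAS in NT replicate 1. Hspa14 was called toward the pPAS in replicate 2, at 12.8% in TIA1-bound RNA and 48.6% in input in NT and 22.0% and 46.2% in AS, and not in replicate 1, at 52.5% and 64.3% in NT and 59.0% and 61.3% in AS. Hspa4 was called in none of the 4 pairs, with shares of 2.91% to 7.02% in TIA1-bound RNA and 1.90% to 3.45% in input. Hsph1 in AS had 3.89% and 2.80% in TIA1-bound RNA against 2.76% and 1.87% in input, not called.

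Hspa1a used its pPAS for 140 reads and its dPAS for 69 in MB in AS, and for 73 and 66 in MT, which are dPAS shares of 33.0% and 47.5%, and in RC the shares were 22.2% and 22.6%. In NIH3T3 cells its share varied widely, in several libraries on few reads. It was 100% and 78.6% in AS total RNA replicates 1 and 2, and 0% in total RNA at RC 4 h. In 4sU it was 41.7% in AS and 12.6% in RC, in Ft 19.2% in RC, and in AS input replicate 1 61.5%. Hspa1b ended at its dPAS in nearly all reads, and in the AS libraries of input and TIA1-bound RNA that site held 97.4% to 99.7% of the reads of both. Hspa14, whose sites are 41 nt apart, was called toward the pPAS in 5 of 15 comparisons, as in MT at RC 4 h (76.8% to 53.1%, exact P 3.88e-05), and its 2 cytoplasmic NT libraries of MB were called apart too (73.5% and 86.3%).

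The genes whose levels followed the inducible pair most closely over the 38 3′READS libraries were other stress genes. By Pearson's r of log2(RPM + 1) with the summed reads of Hspa1a and Hspa1b, over 15384 genes, they were Dnajb1 (0.88), Atf3 (0.842), Zfand2a (0.841), Hmox1 (0.839) and Bag3 (0.826). Among the members Hsph1 had 0.803 and Hspa8 0.794, and the other members with a reading in every library lay between 0.167 (Hspa9) and 0.313 (Hspa4). The points share their depth, cell line and treatment by group, so these values describe likeness only.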

How the data were processed

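Mouse NIH3T3 and C2C12 RNA was measured by 3′READS (38 libraries) and RNA-seq (4). The authors trimmed 3′READS reads with cutadapt, aligned them to mm9 with Bowtie2 and deposited read counts per PAS, and aligned RNA-seq reads with STAR and deposited read counts per gene over coding sequence; the versions of these tools are left out here, and sites or genes with under 5 reads are not listed. PASs within 24 nt were joined and assigned to GENCODE genes, which took 87.9% to 96.5% of the reads of a library. RNA-seq rows whose symbols a spreadsheet had turned into dates (at most 19, 0.257% of reads) were dropped.

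Groups with replicates were compared with edgeR's quasi-likelihood test (TMM, filterByExpr, Benjamini-Hochberg adjustment over all genes), in 1 fit per experiment. With 1 library a group the TMM-scaled ratio was taken for genes with at least 10 reads over the pair, with an exact 95% interval. Intervals cover counting error only, since amplified reads without molecular identifiers are not independent molecules. PAS shifts used Fisher's exact test with over 5 reads per site. The replicate numbers pair the total RNA libraries (correlations of same-numbered NT and AS deviations 0.875, 0.863 and 0.801), and input and TIA1-bound RNA of a replicate came from the same lysate, so blocked values stand beside those results. In the TIA1 fit the block was shared by NT and AS libraries of the same number, whose lysates differ. The study calls its replicates biological, and the labels do not say which are separate cultures, so part of the spread behind the p-values may be technical. On simulated counts for 9669 genes of the AS against NT total RNA comparison, edgeR recovered 64% of 2-fold and 100% of 4-fold changes. For input AS against NT (9728 genes) it recovered 26% and 97%, and for MT against MB (10385 genes) 26% and 98%. The simulation gave every gene the same fixed spread, added no differences between replicate sets and changed only genes with many reads. These shares therefore do not give the power of the tests on the real libraries.

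The members, lists and tests were chosen with earlier results of these data known. The rule names the 9 members, in PAS shifts those with over 5 reads at both sites, some of them by ranges or counts, and of each list at most the 3 called genes with the largest change per direction, plus the 5 genes most like Hspa1a and Hspa1b. Alternatives were DESeq2, other scalings and filters, leave-one-out, other controls, other PAS assignments and read minimums. Tools were R 4.3.3, edgeR 4.0.16, limma 3.58.1, DESeq2 1.42.0, Python 3.11.15, numpy 2.4.6, pandas 2.3.3, scipy 1.17.1 and matplotlib 3.10.9.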

Additional observations from a re-analysis of the deposited data

How the results depend on the processing

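Of the counts of members called under planned and added alternatives, 390 kept within 1.5 times the reported count and 36 did not. For single members 281 values kept, which means direction and call in tests and a value inside the main counting interval in ratios. A further 63 ratios moved outside that interval, 4 tests lost the call, 11 gained one and 1 value reversed. A ratio that fell short of 2-fold is not counted as a lost call. Left out were 843 test alternatives uncalled in both settings, 71 of them with the other sign. In total RNA at RC 4 h, 0 members higher became 2 with DESeq2 and 5 with the replicate block, under which Hspa9 reversed from -0.25 to 0.99, and 0 genes called became 17 higher and 10 lower with DESeq2 and 390 and 225 with the block. For input AS against NT, 1 member higher became 2 with DESeq2 (17 genes higher, 2 lower), without the filter (20 and 4) and with the replicate block (13 and 0), 0 within the annotated gene span, where the main Hspa1b site lies just past the end, and 0 to 1 when leaving out 1 library. TIA1 against input in AS went from 0 to 1 member lower without the filter and with the replicate block (Hspa8, -1.90, edgeR adjusted p 0.0373), and the genes called there went from 33 higher and 60 lower to 983 and 754 with the block, 544 and 628 with DESeq2, and 493 and 478 without the filter, and in NT from 169 and 140 to 915 and 934, 672 and 695, and 598 and 574. For the change of that ratio from NT to AS, 0 genes became 1 higher and 9 lower without the filter and 0 and 5 with DESeq2. In total RNA the block gave 9 genes higher in AS and 7 higher and 7 lower at RC 8 h, and DESeq2 3 and 7 at RC 8 h, where edgeR without the block had 0. Input and TIA1-bound libraries of a number share a lysate (correlations 0.32 in NT and 0.336 in AS), while between NT and AS input (0.478) and between MT and MB (0.053) only the number is shared, and the block changed no other call of a member. The annotated gene span also gave 1 member higher in MT against MB total RNA, 1 in Ft AS, 2 in MB AS, 1 in MT AS, 0 in MT against MB cytoplasm and 1 in AS in replicate set 4, and 0 members lower in Ft RC 4 h and 1 at RC 24 h. Library totals gave 1 member lower in 4sU RC 4 h and in Ft against 4sU at NT 0 h, 1 higher in Ft against 4sU at RC 4 h, 3 higher in MB RC 4 h, 2 higher at RC 8 h, 1 lower at RC 12 h and 0 lower at RC 24 h, where median-ratio factors gave 1. The other NT library as control gave 1 lower in 4sU RC 4 h and 0 lower in MB RC 4 h, and a minimum of 50 reads gave 0 higher at RC 8 h. With both NT libraries as 1 group edgeR gave 5 members higher in RNA-seq AS (Hspa4l and Hspa8 added), 1 in MB AS, 3 higher and 0 lower in MB RC 4 h, and 0 in MT AS. With over 20 reads per site, or the outermost sites with at least 10% of reads, 1 shift toward the dPAS was left of 3. Except where stated, the cause was not tested. Low counts limit Hspa1a, Hspa2 and Hspa8 most: in 3′READS Hspa8 had under 20 reads or none listed in 12 libraries and Hspa1a in 28.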
